A study of Homo sapiens with 6 samples.

Results

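Coenzyme Q and dolichol are long-chain isoprenoids that leave the mevalonate pathway at farnesyl diphosphate, downstream of the enzyme that statins inhibit. The 10 genes *PDSS1*, *PDSS2*, *COQ2*, *COQ3*, *COQ5*, *COQ6*, *COQ7*, *COQ9*, *DHDDS* and *DOLK* encode enzymes and a lipid-binding protein of these 2 routes, and they form a list of named genes with no threshold on their values. A gene was measured if the exon array had a transcript cluster annotated with its symbol alone, which held for 9 of the 10 genes among 12676 genes in the series. *COQ5* had no such cluster and was not analysed here. A further 2 clusters are annotated with *COQ6* together with a neighbouring gene and were not used. The samples were HepG2 cells, an established human hepatoblastoma line, kept for the treatment in medium with human lipoprotein deficient serum in place of fetal bovine serum. In the 3 control wells no drug was added, and in the 3 treated wells water-dissolved (3S, 5S)-atorvastatin sodium salt was present at 10 µM for 24 hours. The total RNA of each well was hybridized to 1 GeneChip Human Exon 1.0 ST array. All samples are of 1 cell line at 1 dose and 1 time.

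In coenzyme Q synthesis, a polyprenyl diphosphate synthase first builds the tail from isoprenoid units. The tail is then joined to a benzoate ring, and enzymes in the mitochondrial inner membrane hydroxylate and methylate the ring until it can carry electrons in the respiratory chain. In dolichol synthesis, a cis-prenyltransferase of the endoplasmic reticulum builds a different chain from the same farnesyl diphosphate, and the finished alcohol is phosphorylated so that sugars for protein glycosylation can be assembled on it. Statins lower the supply of isoprenoid precursors, which is why both products are of interest in statin-treated liver cells.

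None of the 9 measured genes passed the test between atorvastatin-treated and control cells, and in all 9 the arrays of the 2 groups overlapped. Their log2 differences ran from −0.088 (*COQ9*) to 0.077 (*DHDDS*), or from 0.941-fold to 1.05-fold, with a median of 0.032 against 0.011 over all 12797 clusters with 1 symbol. The treated mean was above the control mean in 6 of the 9 genes, and in 55.8% of all clusters. With limma and a block for replicate number, 0 of the 9 genes had an adjusted *p* under 0.05 (adjusted *p* = 1 for each), beside 0% of all clusters (0 of 12797, smallest adjusted *p* = 0.535). At an unadjusted *p* under 0.05 it was also 0 of 9 genes, beside 0.992% of all clusters. Without the block limma again called 0 of 9, beside 0.0313% of all clusters, and the paired test of the methods also called 0. No gene of the 9 had every treated array above every control array, which 4.57% of all clusters had, and none had every treated array below every control array, which 2.68% had. The paper counts the triplicate wells as biological replicates but does not say whether they came from separate cultures, and the *p*-values measure the spread between these wells. In bulk RNA, a change in the number of expressing cells and a change in RNA per cell cannot be told apart.

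**Figure D1:**
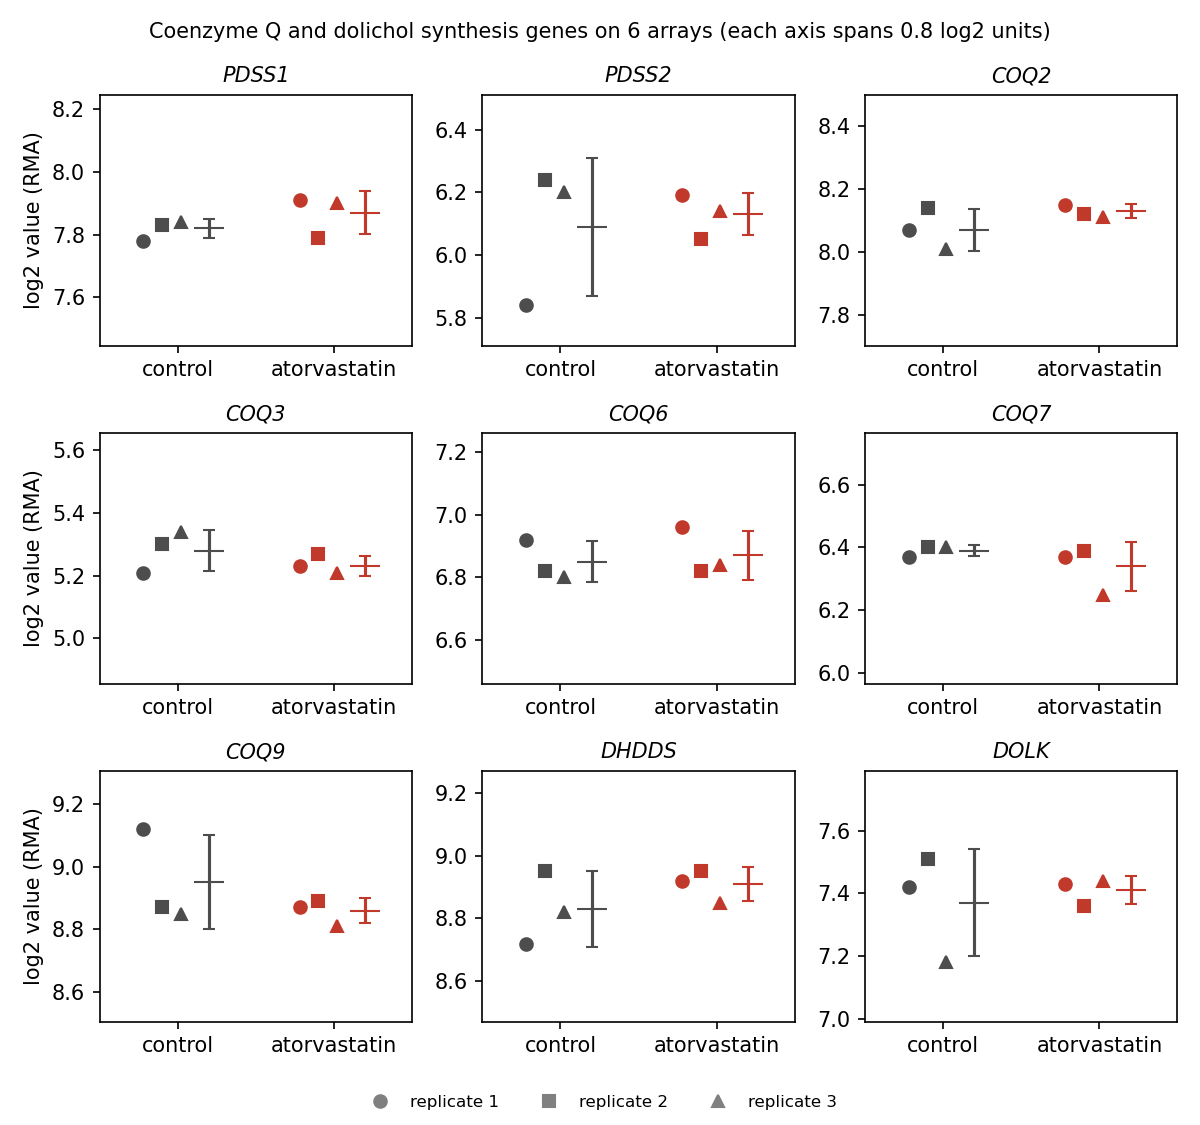
Log2 values of the 9 measured genes on the 3 control arrays (grey) and the 3 atorvastatin arrays (red), with the replicate number as the marker and the mean ± SD (n = 3) beside the points. Each vertical axis spans the same range of log2 units around the gene's own level, and the groups overlap in all 9 genes, with the widest control spread in *PDSS2*, from 5.84 to 6.24.

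The tail of coenzyme Q is made by the 2 subunits encoded by *PDSS1* and *PDSS2*. For *PDSS1*, the catalytic subunit, the log2 values were 7.78, 7.83 and 7.84 on the control arrays and 7.91, 7.79 and 7.90 on the treated arrays. Treated replicates 1 and 3 were above every control, whereas treated replicate 2 lay among the controls. The control mean was 7.82 ± 0.030 and the treated mean 7.87 ± 0.068 (SD, n = 3 each), a 1.04-fold difference (95% confidence interval 0.885-fold to 1.21-fold). *PDSS2*, which encodes the second subunit, had control values of 5.84, 6.24 and 6.20 and treated values of 6.19, 6.05 and 6.14. Control replicate 1 was by itself the lowest of the 6 arrays, and the other 2 controls were above every treated array. The log2 difference of *PDSS2* was 0.032 with all arrays (95% confidence interval −0.27 to 0.34) and −0.13 without replicate 1, so its direction rested on that replicate.

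The tail is joined to the ring by the polyprenyltransferase encoded by *COQ2*. Its control values were 8.07, 8.14 and 8.01, and its treated values were 8.15, 8.12 and 8.11. The treated arrays lay within 0.042 log2 units of each other, and control replicate 2 reached into their range. The means were 8.07 ± 0.067 and 8.13 ± 0.022 (SD, n = 3 each), or 1.04-fold (95% confidence interval 0.890-fold to 1.21-fold).

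The ring is then modified by the products of *COQ3*, *COQ6* and *COQ7*. *COQ3*, an O-methyltransferase, had control values of 5.21, 5.30 and 5.34 and treated values of 5.23, 5.27 and 5.21. These are dim values, below the log2 level of 6 used here to mark dim clusters, and all 3 treated arrays fell inside or at the edge of the control range. *COQ6*, a flavin-dependent monooxygenase, had control values of 6.92, 6.82 and 6.80 and treated values of 6.96, 6.82 and 6.84. In both groups replicate 1 was the highest array. The log2 difference of *COQ6* was 0.021 (95% confidence interval −0.20 to 0.24), the smallest of the 9 genes, and it was −0.024 without treated replicate 1 and −0.0037 without control replicate 3 in the test without the block. *COQ7*, the hydroxylase of the next-to-last step, had control values of 6.37, 6.40 and 6.40 and treated values of 6.37, 6.39 and 6.25. It was lower in the treated array of every replicate number, but same-numbered arrays did not rise and fall together over all clusters. Only treated replicate 3 was clearly below the controls. Its control mean was 6.39 ± 0.018 and its treated mean 6.34 ± 0.078 (SD, n = 3 each), which was 0.965-fold (95% confidence interval 0.824-fold to 1.13-fold).

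*COQ9* encodes a lipid-binding protein that works with the *COQ7* hydroxylase. It had the largest difference of the 9 genes in size, with control values of 9.12, 8.87 and 8.85 and treated values of 8.87, 8.89 and 8.81. Control replicate 1 stood apart from the other 5 arrays, which lay close together. The log2 difference was −0.088 with all arrays (95% confidence interval −0.33 to 0.15) and −0.0085 without replicate 1. Among all clusters, 26.3% had a larger difference in either direction.

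Of the dolichol genes, *DHDDS* encodes the catalytic subunit of the cis-prenyltransferase. Its control values were 8.72, 8.95 and 8.82, and its treated values were 8.92, 8.95 and 8.85. Control replicate 1 was the lowest array and control replicate 2 was level with the highest treated array. The control mean was 8.83 ± 0.12 and the treated mean 8.91 ± 0.053 (SD, n = 3 each), and the log2 difference of 0.077 (95% confidence interval −0.16 to 0.31) was 0.012 without replicate 1. *DOLK* encodes dolichol kinase, which makes dolichyl phosphate. Its control values were 7.42, 7.51 and 7.18 and its treated values were 7.43, 7.36 and 7.44. Control replicate 3 was the lowest array, and the treated arrays lay between the controls. The log2 difference of *DOLK* was 0.040 (95% confidence interval −0.23 to 0.31) with all arrays and −0.072 without replicate 3.

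In 8 of the 9 genes the difference between the group means was smaller than the range of the 3 control arrays, the exception being *COQ7*. It was smaller than the range of the 3 treated arrays in 7 genes, all but *COQ2* and *COQ9*, and smaller than both ranges in 6. The pooled SD within groups ran from 0.050 (*COQ2*) to 0.16 (*PDSS2*), with a median of 0.0721 over the 9 genes and 0.112 over all clusters. The treated arrays were closer to each other than the controls in 6 genes, and *PDSS1*, *COQ6* and *COQ7* had the wider spread in treated cells. Control replicate 1 was the lowest control array in 5 of the 9 genes and the highest in 2. It was also the array with the widest deviations from its group mean over all clusters, with an SD of 0.15 log2 units against 0.073 to 0.13 on the other 5 arrays. Without replicate 1, 3 of the 9 genes (*PDSS2*, *COQ3* and *COQ7*) had groups that did not overlap, beside 49.8% of all clusters. Without replicate 2, this held for 5 of the 9 genes, beside 19.3% of all clusters, and without replicate 3 for 0 of the 9 genes, beside 29.6% of all clusters. The largest single deviation from a group mean among the 9 genes was −0.26, for *PDSS2* in control replicate 1.

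**Figure D2:**
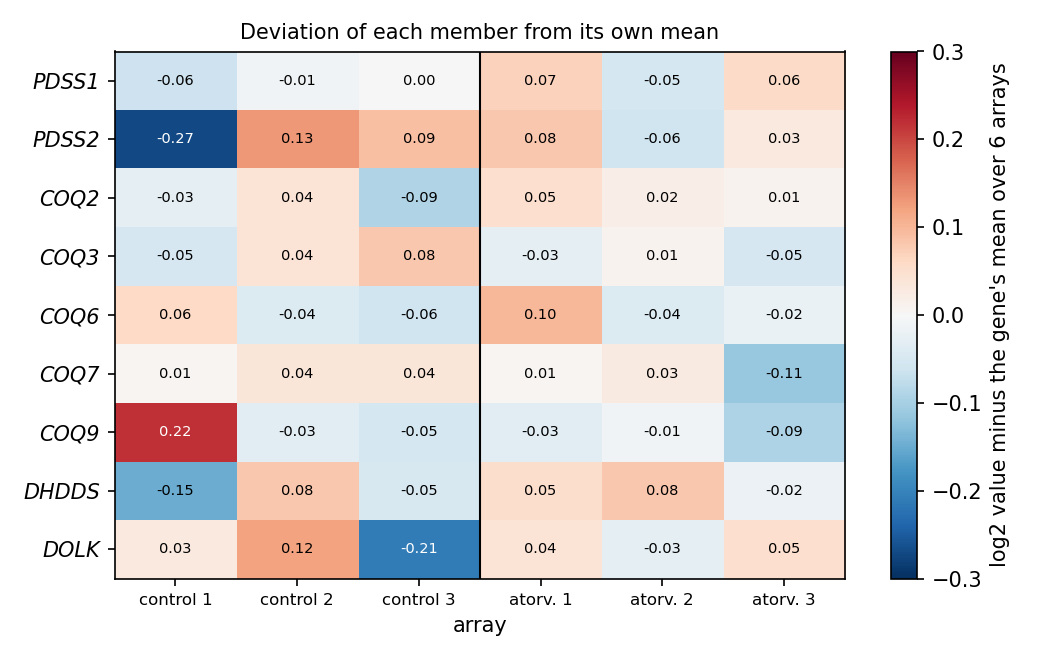
Log2 value of each of the 9 genes on each array minus the mean of the gene over the 6 arrays, with red for higher and blue for lower values and the black line between control and atorvastatin arrays. The strongest colours lie in control replicate 1 (*PDSS2* and *DHDDS* low, *COQ9* high) and control replicate 3 (*DOLK* low), and no row changes colour cleanly between the groups.

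The confidence intervals give the size of change these 6 arrays could still hide. Over the 9 genes the highest upper limit was 1.26-fold (*PDSS2*) and the lowest lower limit was 0.795-fold (*COQ9*). These limits are from limma with the block and use the variance that limma shares between genes. Without the block the limma interval ran from −0.23 to 0.29 on the log2 scale for *PDSS2* and from −0.29 to 0.12 for *COQ9*. With the paired test of the methods, which uses each gene alone, the interval of *PDSS2* ran from −0.67 to 0.73 on the log2 scale and that of *DOLK* from −0.48 to 0.56.

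Most of the measured genes that supply the precursor of both routes gave different values on the same arrays. Of 7 mevalonate enzymes that lead to farnesyl diphosphate, 6 were measured, and 0 of them passed the correction with the block. The median log2 difference of these 6 genes was 0.56. In 5 of them all treated arrays were above all controls, beside 4.57% of all clusters. The exception was *PMVK*, named after its values were seen, at 0.99-fold (95% confidence interval 0.811-fold to 1.21-fold). *MVD*, mevalonate diphosphate decarboxylase, had control values of 8.47, 8.41 and 8.26 and treated values of 9.14, 9.12 and 9.09. *FDPS*, farnesyl diphosphate synthase, had control values of 8.26, 8.36 and 8.20 and treated values of 8.90, 8.89 and 8.75. In both genes the groups were well apart, and the fold changes were 1.67 for *MVD* and 1.49 for *FDPS*, with adjusted *p* = 0.535 and 0.886 in limma. Without the block *MVD* passed (adjusted *p* = 0.0402 in limma) and *FDPS* did not (0.115), with 0.0313% of all clusters called. When the blocked fit used a variance that was trended and robust, 4 of the 6 passed, beside 21 of all 12797 clusters. *MVK*, mevalonate kinase, was 1.46-fold higher on average (95% confidence interval 1.25-fold to 1.71-fold). The lower limits of *MVD* (1.42-fold), *HMGCS1* (1.3-fold) and *FDPS* (1.28-fold) were above the highest upper limit of the 9 coenzyme Q and dolichol genes, 1.26-fold. Those of *MVK* (1.25-fold), *IDI1* (1.08-fold) and *PMVK* (0.811-fold) were not. *HMGCS1* and *IDI1* were also named after their values were seen. These limits are from limma with the block. The paired test of the methods gave *PDSS2* a higher upper limit, 0.73 on the log2 scale.

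**Figure D3:**
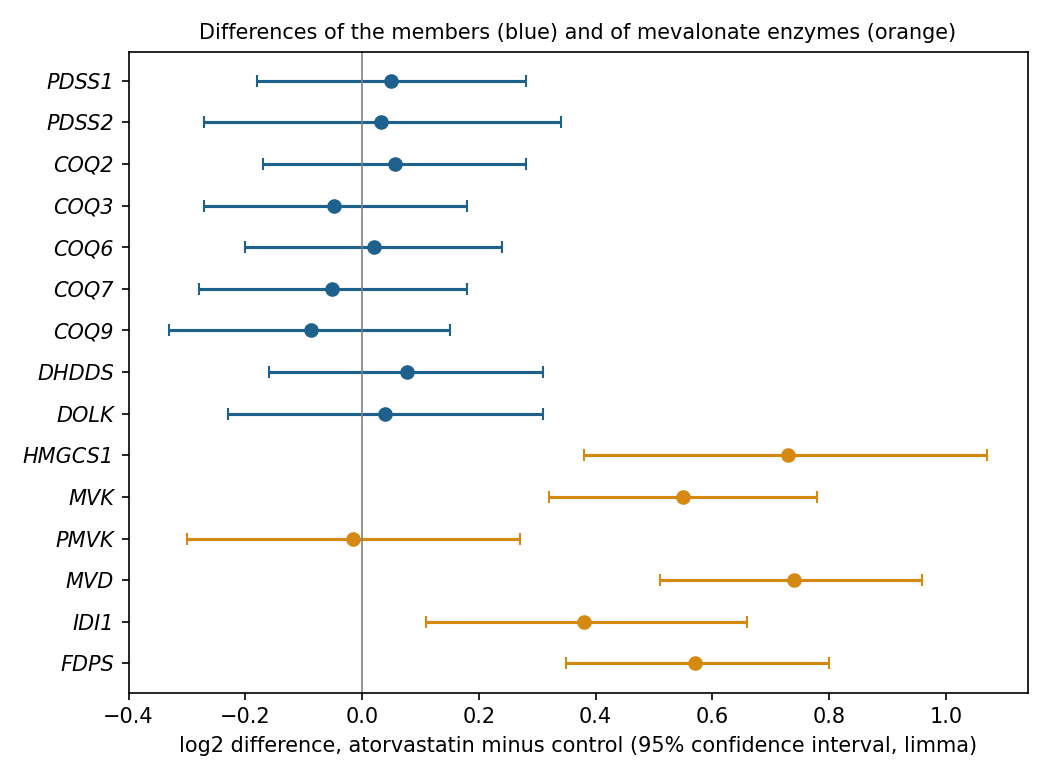
Log2 difference between atorvastatin and control arrays (horizontal axis, point) with its 95% confidence interval from limma with the block (bar), for the 9 coenzyme Q and dolichol genes (blue) and the 6 measured mevalonate enzymes (orange). Every blue interval includes 0, while among the orange genes only that of *PMVK* does. *HMGCS1*, *IDI1* and *PMVK* complete the list and were named after their values were seen.

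The difference between *FDPS* and each of the 9 genes was compared within arrays. The log2 difference of *FDPS* exceeded that of the other gene by 0.50 (*DHDDS*) to 0.66 (*COQ9*), and in 9 of 9 comparisons the gap between the 2 genes was wider on every treated array than on every control array. An exact permutation test, two-sided, gave *p* = 0.1 in each, the smallest *p* that 3 against 3 arrays allow. All 9 comparisons share the same *FDPS* values, so they are not separate results, and *FDPS* was named for its small *p* on these same arrays. The gap was wider in the same way for 95% of all clusters, so this separation was not particular to coenzyme Q and dolichol genes.

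The promoters of the genes were searched for motifs because the mevalonate enzymes are known targets of the sterol-responsive factor SREBP, which acts together with NF-Y. The windows, from RefSeq and genome build GRCh38.p14, ran from 250 bases before to 50 bases after each annotated start, and they were present for 8 of the 9 measured genes and for the 6 measured mevalonate enzymes. Both strands were searched, and a gene counted if any of its windows held a match, also in the shares given for all 27305 genes with a window. The NF-Y box CCAAT was found in 5 of the 8 coenzyme Q and dolichol genes (*PDSS2*, *COQ2*, *COQ6*, *COQ7* and *DOLK*), in 5 of the 6 mevalonate enzymes (all but *PMVK*) and in 39.7% of all genes. At least 2 boxes in 1 window were found in *COQ2*, *COQ6* and *COQ7*, in those 5 mevalonate enzymes and in 12.9% of all genes. The SREBP motif TCACNCCAC was found in 0 of the 8 and 0 of the 6 genes and in 1.39% of all genes. Its looser form TCACNCNA, which overlaps it, was found in *DHDDS*, in *FDPS* and *MVK*, and in 10.8% of all genes. The form CACNCCAC, contained in the first, was found in *IDI1* alone of these genes and in 7.05% of all genes. For the mitochondrial regulator NRF1 the motif GCGCANGCG was found in *DHDDS* alone and in 9.02% of all genes, and CGCATGCG in none of these genes and in 2.46%. The YY1 motif AAGATGGCG was found in *DOLK* alone (2.14% of all genes), and the ETS motif CCGGAAG in *FDPS* and *IDI1* alone (12.2%). A match is a string of letters and was not tested as a binding site.

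The 250 bases before the start are printed 5′ to 3′ for 4 genes, chosen after the matches were seen to show a gene of the coenzyme Q route with NF-Y boxes, one with no match, the *DHDDS* promoter with its 2 matches, and *FDPS* as the supply gene with the higher values in treated cells. Capitals mark the NF-Y box CCAAT, the motif TCACNCNA and the motif GCGCANGCG on either strand. The stretches are *COQ2* at chr4:83284799-83285048 (minus strand), *PDSS1* at chr10:26697451-26697700 (plus strand), *DHDDS* at chr1:26432071-26432320 (plus strand) and *FDPS* at chr1:155308616-155308865 (plus strand).
COQ2: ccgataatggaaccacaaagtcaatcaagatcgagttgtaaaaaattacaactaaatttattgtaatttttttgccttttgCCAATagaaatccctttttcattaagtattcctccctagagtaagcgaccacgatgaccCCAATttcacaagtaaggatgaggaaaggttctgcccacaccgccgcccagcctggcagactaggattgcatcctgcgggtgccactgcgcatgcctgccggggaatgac
PDSS1: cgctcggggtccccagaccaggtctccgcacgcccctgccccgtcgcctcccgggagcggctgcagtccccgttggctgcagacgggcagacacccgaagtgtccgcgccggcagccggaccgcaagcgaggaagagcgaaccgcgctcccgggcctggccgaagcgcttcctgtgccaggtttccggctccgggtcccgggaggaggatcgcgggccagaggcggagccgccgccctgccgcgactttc
DHDDS: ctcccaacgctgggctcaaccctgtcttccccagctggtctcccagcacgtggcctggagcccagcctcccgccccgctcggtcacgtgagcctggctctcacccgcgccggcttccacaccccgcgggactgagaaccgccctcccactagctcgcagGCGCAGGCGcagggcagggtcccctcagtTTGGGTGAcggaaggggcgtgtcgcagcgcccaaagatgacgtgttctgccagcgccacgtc
FDPS: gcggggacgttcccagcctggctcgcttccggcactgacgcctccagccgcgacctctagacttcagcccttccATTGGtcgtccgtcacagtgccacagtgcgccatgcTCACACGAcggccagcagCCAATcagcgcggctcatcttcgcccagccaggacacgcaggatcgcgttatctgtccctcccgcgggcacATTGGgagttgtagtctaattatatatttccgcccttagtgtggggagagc
In *COQ2* the boxes begin 169 and 110 bases before the start, and its treated mean was 1.04-fold the control mean. In *FDPS* 3 boxes begin 176, 122 and 51 bases before the start with the SREBP-like match at 140 bases, and its treated mean was 1.49-fold the control mean. *DHDDS* and *MVK*, which also hold the SREBP-like match, were 1.05-fold and 1.46-fold. *MVD*, with no match to any SREBP form searched, was 1.67-fold. The motif TCACNCCAC was found in 0 of the 6 measured mevalonate enzymes. A missing match therefore does not show that a promoter lacks an SREBP site. A link between these matches and the array values was not tested.

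Other genes of the coenzyme Q route gave no call either. Of 8 further genes for its synthesis, regulation and binding, 6 were measured, 0 passed the correction in either direction, 4 were higher on average, and the median log2 difference was 0.084. *COQ4*, which helps to organise the coenzyme Q enzyme complex, had control values of 7.62, 7.47 and 7.28 and treated values of 7.78, 7.60 and 7.57. The treated array was the higher one for every replicate number, yet same-numbered arrays did not rise and fall together over all clusters. The groups overlapped, at 1.14-fold (95% confidence interval 0.976-fold to 1.34-fold, adjusted *p* = 1 in limma). *HPDL*, an enzyme that acts in making the ring precursor, was 1.16-fold higher on average at a dim level, with control values from 4.87 to 5.43 and treated values from 5.14 to 5.48. *COQ10B*, a coenzyme Q-binding protein, was 1.07-fold higher on average (95% confidence interval 0.867-fold to 1.33-fold).

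Further along the dolichol route, 11 of 22 genes for dolichol and the sugar chain built on it were measured. Of these, 0 passed in either direction, 5 were higher and 6 were lower on average, and the median log2 difference was −0.00054. *ALG2*, a mannosyltransferase, had control values of 8.19, 8.13 and 8.21 and treated values of 8.05, 8.11 and 8.07, and it was the only gene of the 11 with every treated array below every control array (0.935-fold, 95% confidence interval 0.801-fold to 1.09-fold). One of 11 genes stands beside the 2.68% of all clusters with this order. *ALG13*, a subunit of an N-acetylglucosamine transferase, was 0.871-fold, with control values of 7.56 to 7.93 and treated values of 7.29 to 7.76 at the brighter of its 2 clusters. *ALG8*, a glucosyltransferase, was 0.918-fold with a log2 difference of −0.12 (95% confidence interval −0.38 to 0.14).

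Genes on either side of the 2 routes were described in the same way. Of 6 enzymes of other branches that use farnesyl or geranylgeranyl diphosphate, 2 were measured, *GGPS1*, which makes geranylgeranyl diphosphate (1.07-fold), and *FNTB*, the farnesyltransferase beta subunit (1.03-fold), and 0 passed. Of 19 genes for enzymes that reduce or oxidise coenzyme Q, 13 were measured and 0 passed in either direction. Their log2 differences ran from −0.084 to 0.081 with a median of 0.023, with 8 of 13 higher on average. The 3 with the smallest *p* were *CHDH*, choline dehydrogenase (1.05-fold), *UQCRC2*, a core subunit of complex III (0.948-fold), and *SQOR*, sulfide quinone oxidoreductase (1.06-fold). *ETFB*, a subunit of the electron transfer flavoprotein that was named after its values were seen, was the 1 gene of this list with every treated array below every control array, again beside 2.68% of all clusters.

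**Figure D4:**
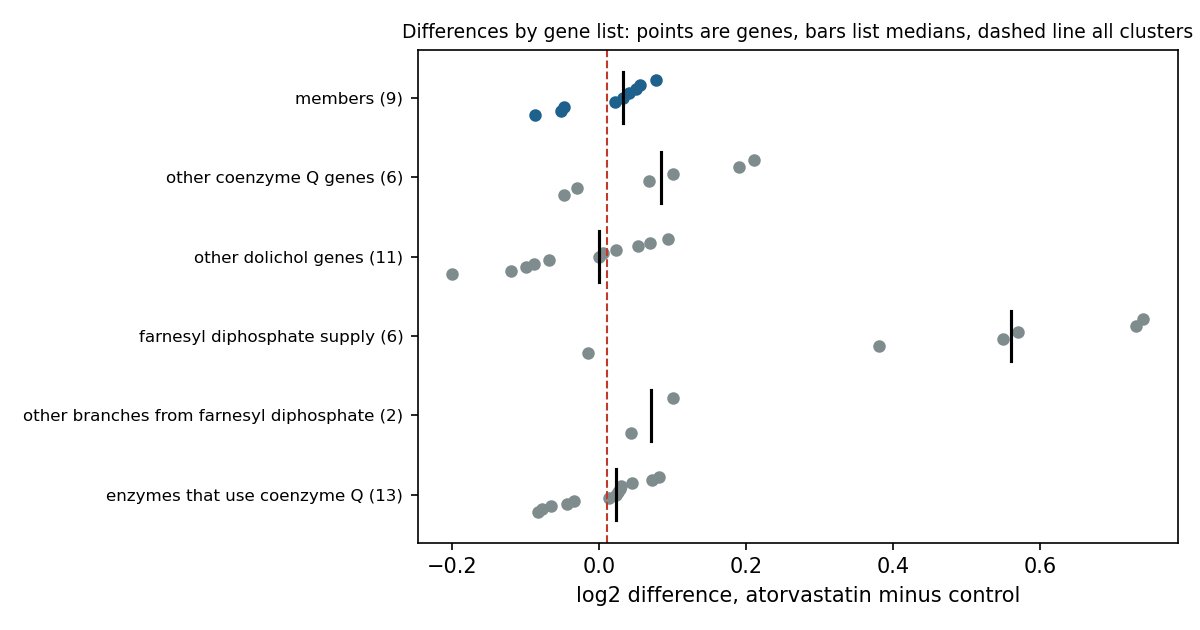
Log2 difference between atorvastatin and control arrays for each measured gene of 6 lists (points, with the number of genes in parentheses), the median of each list (black bar) and the median of all clusters with 1 symbol (dashed line). The 9 coenzyme Q and dolichol genes (blue) lie between −0.088 and 0.077, and 5 of the 6 genes that supply farnesyl diphosphate lie to the right of every other gene shown.

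Array medians ranged from 6.66 to 6.72 and the Pearson coefficient between 2 arrays from 0.990 to 0.997. Of 10 hepatocyte markers 7 were measured, with a mean log2 value per array of 11.01 to 11.14 in control and 10.98 to 11.07 in treated cells. Of 14 markers of fibroblasts, endothelium and leukocytes 12 were measured, with 5.06 to 5.31 in control and 5.17 to 5.31 in treated cells, and 8 of them were dim. The highest of these was *CD68*, named after its values were seen, with a mean level of 8.25. None of either list passed the test. By the smallest *p*, the hepatocyte genes were led by *FGB* (0.881-fold), *ALB* (0.955-fold) and *APOC3* (1.03-fold), and the other markers by *TEK* (1.11-fold), *COL1A1* (1.07-fold) and *CDH5* (1.08-fold).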

How the data were processed

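HepG2 RNA from 3 control and 3 atorvastatin-treated wells was hybridized to exon arrays. The deposited table holds 1 log2 value per transcript cluster and array, which the authors made in Partek Genomics Suite with RMA, keeping core probe sets and averaging those of a gene. Versions are not given in the sources used here. The labels name build hg18, so no array coordinates are given. RMA sets the arrays to 1 distribution, so a shift of all genes together would not be seen.

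The 12797 clusters with exactly 1 gene symbol (of 16634) were tested in limma 3.58.1 (R 4.3.3) with lmFit and eBayes. Following the methods' paired test, replicate number was a block (2 residual and 4.58 prior degrees of freedom). Benjamini-Hochberg adjustment ran over all clusters tested, with a threshold of 0.05. Gene names came from the platform annotation, and 12774 clusters matched a RefSeq gene by Entrez ID. A gene with several clusters was taken at that with the highest mean. Named were all measured members and, of each other list, the 3 genes with the smallest *p*. Genes named outside this rule are marked in the text. The members and lists were chosen with earlier results of these data known. Exact tests and figures used Python 3.11.15 (scipy 1.17.1, matplotlib 3.10.9). The fits were tested on simulated arrays with independent noise around each cluster's mean. Those had no replicate or array effects, unlike the arrays here. The number of arrays limits the precision.

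Alternatives were no block, paired and unpaired t-tests, a trended and robust variance, a minimum mean log2 value of 6, median centring, repeated quantile normalization, every cluster, 1 cluster per gene, and each replicate or array left out.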

Additional observations from a re-analysis of the deposited data

How the results depend on the processing

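None of the 9 coenzyme Q and dolichol genes had an adjusted *p* under 0.05 in any of the 18 alternatives (limma or t-tests, smallest adjusted *p* = 0.641), and *COQ3* was too dim for the setting with a minimum level. *PDSS1*, *COQ2*, *COQ3*, *COQ7*, *COQ9* and *DHDDS* kept the sign of their difference in each setting run. The other 3 changed sign only where arrays were left out, with log2 differences from −0.13 to 0.14 for *PDSS2* (−0.13 without replicate 1, −0.10 without control replicate 1), −0.024 to 0.058 for *COQ6* and −0.072 to 0.13 for *DOLK* (−0.072 without replicate 3, −0.057 without control replicate 3). The median over the 9 genes then ran from −0.0037 (without control replicate 3) to 0.095 (without replicate 2, against 0.011 without replicate 1). The number of genes with groups that did not overlap ran from 0 to 5, and the share of all clusters from 11.3% to 49.8%. The 2 did not move together. Without replicate 2 it was 5 of 9 genes, beside 19.3% of all clusters. Without replicate 1 it was 3 of 9, beside 49.8%, and without replicate 3 it was 0 of 9, beside 29.6%. Over all clusters, the count of calls, 0 with the block, was 4 with no replicate block, 21 when the variance was trended and robust, and 0 to 32 with arrays left out. Among the 6 measured mevalonate enzymes, it was 1 with no block, 4 when the variance was trended and robust, and 0 to 3 with arrays left out. The count of called genes in the other 4 lists stayed at 0 throughout. No member had several clusters of its own, so the choice of cluster was not run. Same-numbered arrays did not rise and fall together, since their deviations from their group means correlated at −0.463, 0.0725 and −0.557 across clusters. The 3 deviations of a group are not independent, so these correlations cannot show whether the wells were handled as pairs. The block changed no call among the 9 genes. Where 1 array was left out of a group, the block was dropped.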
